A study of Mus musculus with 2 samples.

Results

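Metaphyseal type H capillaries are the vessels of the growing end of long bones. The description below covers 2361 endothelial cells (ECs) of this kind, 1138 of 10937 Control ECs and 1223 of 11661 Dach1OE ECs, out of 55783 cells kept in all. The cells were chosen by the genes they held, so their share and the genes of the choice are descriptions. A kept cell counted as an EC with at least 3 of Cdh5, Pecam1, Kdr, Emcn, Tie1, Esam and Plvap and no Ptprc, the gene of CD45. An EC was selected on at least 2 of Ramp3, Ednrb, Pcdh17, Piezo2 and Tcim, called the type H genes here. It also had to hold fewer than 3 of the sinusoidal genes Stab2, Gpm6a, Dnase1l3, Il13ra2, F8 and Mrc1, fewer than 2 of the arterial genes Gja5, Sema3g, Stmn2, Fbln2 and Jag2, and fewer than 2 of the tip cell genes Pgf, Nos2, Cxcr4, Esm1 and Angpt2. Holding a gene means at least 1 unique molecular identifier (UMI), the tag that marks 1 captured RNA molecule.

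The study took femur and tibia of C57BL/6 mice at postnatal day 30, removed the epiphysis and depleted blood cells before single-cell RNA sequencing. Control mice had the genotype Dach1OE +/f, a Dach1 transgene at the Rosa26 locus that stays silent without Cre. Dach1OE mice had the genotype Apj CreERT2 - Dach1OE +/f, in which the promoter of Aplnr, also called Apj, drives a tamoxifen-inducible Cre. Both groups received tamoxifen, on postnatal days 1 and 2 per the methods. There was 1 library per group, each made from 2 mice per the methods and from both sexes per the labels. Hence no value below has a replicate library, no test was possible, and every interval is a 95% interval of counting error only. The libraries held 143986818 UMIs in Control and 166999989 in Dach1OE, at 1.51 and 1.45 reads per UMI, and 1049 cell barcodes occurred in both, 1 of them among the type H cells of both libraries.

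Type H vessels are known for their columns and arches next to the growth plate, their high CD31 and endomucin protein, and their coupling of vessel growth to bone formation. Blood flows from arteries into these capillaries and on into the sinusoids of the marrow, the type L vessels. The apelin receptor Aplnr marks capillary and venous endothelium that can sprout, and its ligand Apln is made by sprouting ECs. DACH1 is a transcription factor that promotes the growth of coronary arteries.

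The selection was compared with genes it did not use. Levels are given in CPM, the UMIs of a gene per 1000000 UMIs of the cells in question. Aplnr stood at 920 CPM in Control and 919 CPM in Dach1OE, against 354 and 333 CPM in the sinusoidal cells and 122 and 116 CPM in the arterial cells. Those comparison cells held at least 3 sinusoidal or at least 2 arterial genes and stayed under all other limits. Apln stood at 219 and 227 CPM, and its level over that in all other ECs was 2.0 on the log2 scale in Control and 1.30 in Dach1OE. The laminin chain gene Lamb1 stood at 183 and 176 CPM, 2.0 and 0.91 above other ECs on the log2 scale. Cd34, a sialomucin of capillary endothelium, stood at 1193 and 1260 CPM, or 2.10 and 1.48 above other ECs. All 6 listed metaphyseal genes that could be compared stood above other ECs in Control, with a median of 1.76. The arterial genes outside the selection were not low throughout: 7 of the 11 tested stood above other ECs in Control, with a median of 0.23, while Bmx had 3 UMIs in each library. The sinusoidal adhesion gene Vcam1 stood at 104 and 85.3 CPM. The metaphyseal genes that had no part in the selection were thus above other ECs, with a smaller margin over other ECs in Dach1OE for Apln, Lamb1 and Cd34. The other ECs differed in make-up between the libraries: sinusoidal cells took 51.0% of all ECs in Control and 15.6% in Dach1OE. A margin over other ECs therefore depends on those cells as well, and their part in it was not tested.

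The type H share of ECs was 10.4% in Control (interval 9.84 to 11) and 10.5% in Dach1OE (9.94 to 11.1), which lie 0.0829 percentage points apart (-0.716 to 0.880). Other limits and depths gave other shares. Before the limits on other genes were applied, 2786 Control ECs (25.5%) and 2046 Dach1OE ECs (17.5%) held at least 2 type H genes, and 46.7% and 22.6% of these were set aside by the sinusoidal limit. With every cell thinned to 1500 UMIs before the selection, which also left out cells with fewer UMIs, 932 and 757 cells were selected and the shares were 10.6% and 8.33%. Sinusoidal cells took 51.0% of Control and 15.6% of Dach1OE ECs, arterial cells 4.15% and 12%, and cells that met no gate 17.5% and 51.4%. The selected cells were deeper in Dach1OE, where the median cell held 3459 UMIs of 1778 genes, than in Control, where it held 2657 UMIs of 1478 genes.

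Dach1OE cells met the selection with fewer of its genes. In Control 43.9% of the selected cells held exactly 2 type H genes and in Dach1OE 56.4% did. Tcim, a small regulator of transcription, was held by 82.3% of Control and 88.3% of Dach1OE cells, and Ednrb, the endothelin receptor B gene, by 54.8% and 57.2%. Ramp3, which encodes a receptor activity-modifying protein that pairs with the calcitonin receptor-like receptor, was held by 51.0% and 39.6%, and Pcdh17, a protocadherin gene, by 44.9% and 30.7%. Among cells with exactly 2, the pair of Ednrb and Tcim made up 17.6% in Control and 35.2% in Dach1OE.

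All 5 type H genes were lower per UMI in Dach1OE. Ramp3 stood at 235.7 CPM in Control and 145.8 CPM in Dach1OE, a log2 ratio of -0.69. Pcdh17 stood at 209.2 and 117.0 CPM, a log2 ratio of -0.84. Ednrb had a log2 ratio of -0.51, the mechanosensitive channel gene Piezo2 one of -0.55 and Tcim one of -0.16. With cells thinned to 1500 UMIs before the selection the differences were small, at -0.10 for Ramp3, -0.22 for Pcdh17, -0.19 for Piezo2, -0.17 for Ednrb and 0.04 for Tcim. Across the alternatives Pcdh17, Piezo2 and Ramp3 stayed below 0, whereas Ednrb ranged from -0.85 to 0.06 and Tcim from -0.44 to 0.04. Every alternative used cells selected on these same genes, so none is an independent check of their direction. After each selected cell was thinned to 1000 UMIs, which left out 35 Control and 14 Dach1OE cells, 24.8% and 16.5% had a Ramp3 UMI. Chondrocyte-like cells, which should lack endothelial genes, had one in 0 of 5039 Control cells, which allows a share of up to 0.0595% by a floor of 3 counts and 0.0732% by the exact binomial interval, and in 0.0281% of Dach1OE cells, at median depths of 9432 and 8934 UMIs before thinning. Tcim was also seen outside the type H cells, in 18.6% of Control and 18.8% of Dach1OE sinusoidal cells and 0.992% and 1.52% of chondrocyte-like cells thinned alike.

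Just outside the threshold, ECs with 1 type H gene that met all other limits had Aplnr at 504 CPM in Control and 493 CPM in Dach1OE. Just inside, with 2 type H genes, Aplnr stood at 776 and 820 CPM. Cells with all 5 had 1295 and 1088 CPM. In Dach1OE, Dach1 stood at 162 CPM in cells with no type H gene, 182 CPM at 1 gene, 148 CPM at 2, 120 CPM at 3, 59.3 CPM at 4 and 44.0 CPM at 5, while the Control stayed between 3.70 and 9.38 CPM.

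**Figure D1:**
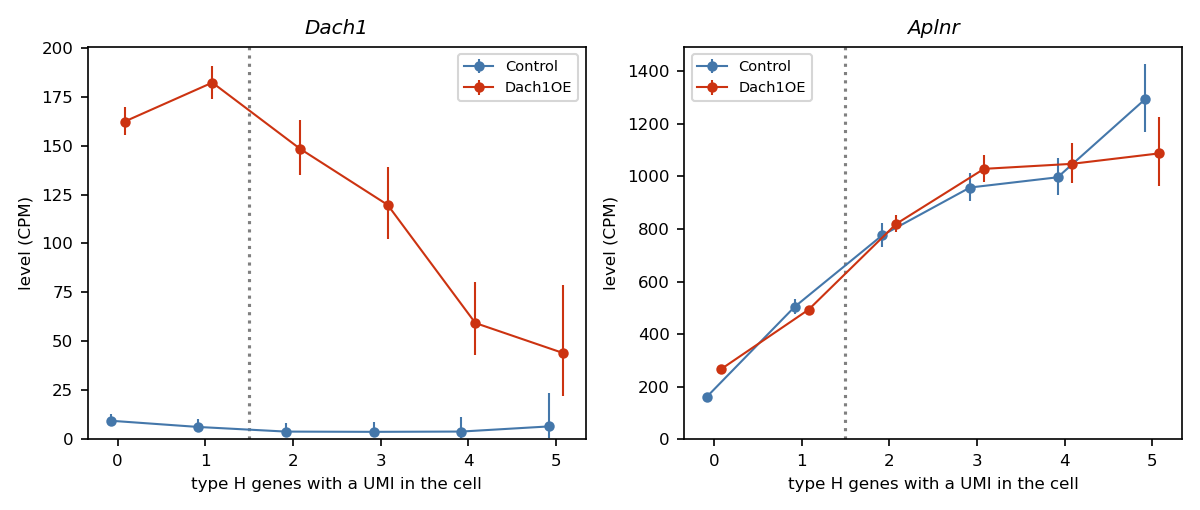
Levels of Dach1 and Aplnr in CPM in ECs under the other limits, by how many of the 5 type H genes a cell held, for Control and Dach1OE, with 95% counting intervals and a dotted line at the selection threshold. In Dach1OE, Dach1 is at 182 CPM with 1 gene and at 44.0 CPM with 5, while Aplnr is higher in cells with more type H genes in both libraries.

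Dach1, the gene placed under Cre control, checks the labels. It lies at chr14:97786853-98169765 on the minus strand of GRCm38 and had 16 UMIs in 15 Control type H cells and 661 UMIs in 369 Dach1OE type H cells. Its level of 3.99 CPM (2.28 to 6.49) in Control stood against 124 CPM (115 to 134) in Dach1OE, a log2 ratio of 4.96 (4.24 to 5.77). Cells with Xist had 7 and 178 Dach1 UMIs, and cells with Y-linked UMIs had 1 and 258, so Dach1 was higher in the Dach1OE mouse of each sex. Each library was taken to hold 1 female and 1 male mouse, from the 2 mice of the methods and the 2 sexes of the labels. Cells with both or neither kind of UMI were given no sex, which left out 531 of 1138 Control and 498 of 1223 Dach1OE type H cells. The sinusoidal cells had a log2 ratio of 4.74 and the arterial cells one of 3.42. In thinned cells, a Dach1 UMI was seen in 10.3% of Dach1OE type H cells, 6.87% of sinusoidal cells, 19.1% of arterial cells and 0.646% of chondrocyte-like cells, in which the Cre should be silent. Median UMIs before thinning were 3459 in the type H cells and 8934 in the chondrocyte-like cells. UMIs of the transgene and of the native gene cannot be told apart here. Gt(ROSA)26Sor, the noncoding transcript of the Rosa26 locus that carries the transgene, stood at 19.7 CPM in Control and 155 CPM in Dach1OE, a log2 ratio of 2.98 (2.64 to 3.33).

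Across type H cells, 62 of 8995 genes (0.689%) were at least 2-fold higher in Dach1OE and 75 (0.834%) at least 2-fold lower, among genes with at least 100 UMIs over both libraries. Of these, 59 and 70 lay on the same side in both sexes, and the median over all genes was 0.01 on the log2 scale. The comparison within sex sets 1 mouse against 1 mouse. The cells of each sex are part of the pooled cells that gave the 2-fold calls, so lying on the same side is partly built in. In the sinusoidal cells the same count was 75 higher (0.658%) and 64 lower (0.562%), in the arterial cells 170 (2.1%) and 195 (2.41%), and in the ECs that met no gate 189 (1.59%) and 512 (4.32%), over other numbers of UMIs. With cells thinned to 1500 UMIs before the selection, 19 genes were higher and 17 lower among the 4583 genes that then had enough UMIs.

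Vwf, Mest and Gap43 were among the genes highest in Dach1OE type H cells by the naming rule. Vwf, the gene of the clotting protein von Willebrand factor, lies at chr6:125546774-125686679 and stood at 19.5 CPM (15.4 to 24.3) in 39 Control cells and 111 CPM (102 to 120) in 294 Dach1OE cells. Its log2 ratio was 2.51 (2.17 to 2.87), with 2.54 in cells with Xist and 3.01 in cells with Y-linked UMIs. Vwf also differed in the sinusoidal cells, at 10.5 and 81.6 CPM, and was higher throughout in the arterial cells, at 264 and 414 CPM. Mest, an imprinted gene expressed in mesoderm, lies at chr6:30723547-30748465 and stood at 65.2 CPM (57.5 to 73.6) and 344 CPM (329 to 361), with a log2 ratio of 2.40 (2.21 to 2.59) and values of 2.01 and 2.68 in the cells of either sex. Mest was nearly level in the sinusoidal cells, at 68.3 and 88.2 CPM, but also higher in Dach1OE in the arterial cells, at 48.8 and 185 CPM. Gap43, a growth-cone gene at chr16:42248442-42340651, stood at 49.4 CPM (42.8 to 56.8) and 212 CPM (200 to 225), a log2 ratio of 2.10 (1.88 to 2.33), and in the other ECs at 8.04 and 36.2 CPM.

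Further genes named by the same rule had smaller totals. The connexin 37 gene Gja4, an arterial gene outside the selection, stood at 17.2 and 62.2 CPM, a log2 ratio of 1.85 (1.48 to 2.25), with 0.93 in cells with Xist and 2.87 in cells with Y-linked UMIs. In the arterial cells Gja4 stood at 469 and 1160 CPM. Ackr3, the scavenging receptor of Cxcl12, stood at 27.2 and 89.4 CPM, a log2 ratio of 1.72 (1.41 to 2.03). Tiam1, an activator of Rac, had a log2 ratio of 1.90 (1.56 to 2.25). Ift122, a gene of ciliary transport, had one of 1.94 (1.61 to 2.29), and the calcium-activated chloride channel regulator Clca3a1 one of 2.22 (1.85 to 2.62). Scgb3a1 had 11 UMIs in Control and 420 in Dach1OE, and a log2 ratio of 4.84 (3.99 to 5.85). Sinusoidal cells also had more in Dach1OE, with Scgb3a1 at 15.6 and 356 CPM, Clca3a1 at 355 and 769 CPM and Ackr3 at 8.54 and 44.5 CPM. Tiam1 stood there at 5.22 and 9.60 CPM and Ift122 at 5.68 and 9.47 CPM. Prg2, an eosinophil granule gene, had a log2 ratio of 4.61, but 467 of its 522 UMIs in Dach1OE (89.5%) came from 1 cell, and without the cell richest in it in each library the ratio was 1.56. That check was added after the values were seen.

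**Figure D2:**
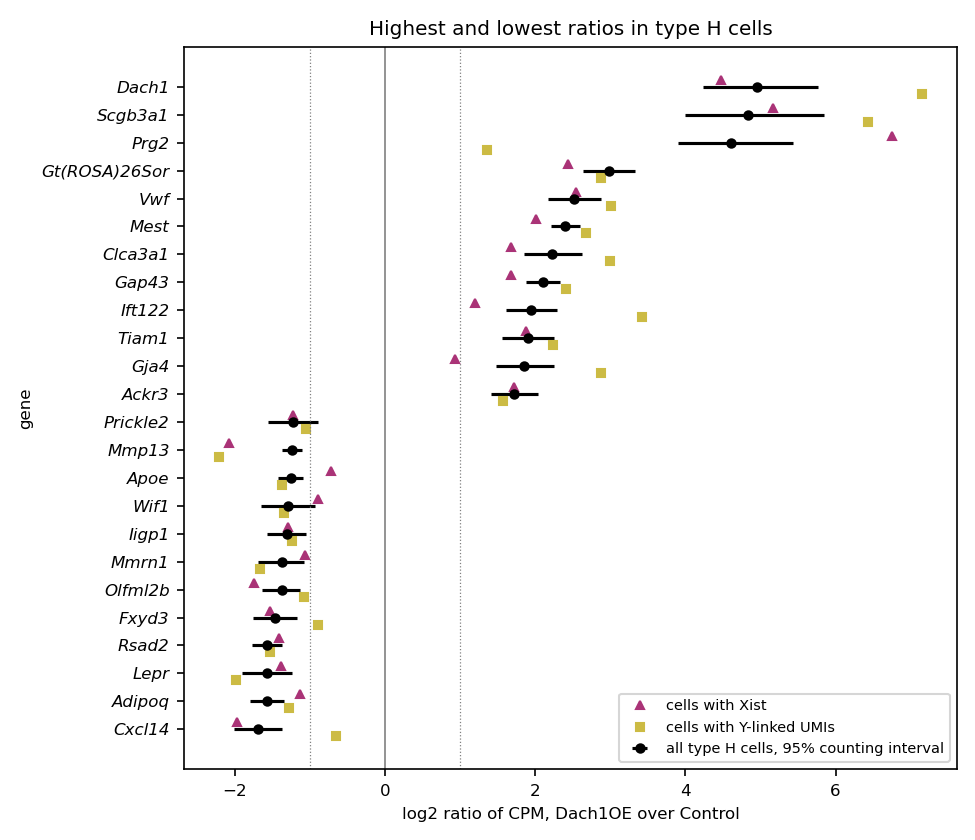
Log2 ratio of CPM, Dach1OE over Control, in type H cells for the 12 genes with the highest and the 12 with the lowest ratio named by the rule, with 95% counting intervals, triangles for cells with Xist, squares for cells with Y-linked UMIs and dotted lines at a 2-fold difference. Dach1 lies at 4.96 and Cxcl14 at -1.69, and both sexes are on the same side of 0 in each gene because the rule required it.

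Among the genes lowest in Dach1OE were Rsad2, Iigp1, Prickle2 and Apoe. The antiviral gene Rsad2, which encodes viperin, stood at 169 CPM (156 to 182) in 318 Control cells and 57.0 CPM (50.8 to 63.8) in 168 Dach1OE cells. Its log2 ratio was -1.57 (-1.77 to -1.37), with -1.42 in cells with Xist and -1.54 in cells with Y-linked UMIs. Iigp1, an interferon-inducible GTPase gene, stood at 86.4 and 34.9 CPM, a log2 ratio of -1.31 (-1.57 to -1.05). Prickle2, a gene of planar cell polarity, had a log2 ratio of -1.23 (-1.56 to -0.90), and Apoe, the apolipoprotein E gene, one of -1.26 (-1.43 to -1.10). In the sinusoidal cells Apoe stood at 976 and 623 CPM and Iigp1 at 286 and 241 CPM, above their levels in type H cells. The 6 sinusoidal genes of the selection, which the selection itself limits, had a median of -0.99 in type H cells. The 9 tested sinusoidal genes outside the selection had a median of -0.13, with 4 above 0. The part of sinusoidal RNA in the ratios of this paragraph was not tested.

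Genes of marrow stroma were also among the lowest. The marrow stroma markers had a median of -0.91, whereas the osteoblast markers had one of 0.09. Adipoq and Lepr, genes of marrow stromal cells, had log2 ratios of -1.58 and -1.57, and Cxcl14 had -1.69. Markers of marrow stroma summed to 618 CPM in Control and 292 CPM in Dach1OE type H cells, and to 755 and 527 CPM in the sinusoidal and 736 and 226 CPM in the arterial cells. Of the UMIs of Cxcl14, Adipoq, Fxyd3 and Wif1, at least 55% in each library lay in the 10 cells richest in the gene. After cells in which 1 marker list of another cell type took over 1% of the UMIs were left out, a step added after the values were seen, the log2 ratio of Adipoq was -0.21. The collagenase gene Mmp13 had a log2 ratio of -1.24, and 31.2% of its Control UMIs came from 1 cell. Mmrn1, a gene also used to mark lymphatic vessels, had one of -1.38, from 68.9 and 26.4 CPM. It stood higher in the sinusoidal cells, at 233 and 138 CPM. Olfml2b and Fxyd3 had -1.38 and -1.47. Without cells holding 2 genes of another cell type's list, which left 161 Control and 103 Dach1OE cells, Olfml2b, Mmrn1 and Mmp13 no longer lay below 0. The part of other cell types in the results was not tested.

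Listed interferon-response genes lay mostly below 0. Of the 13 listed genes with enough UMIs, 2 were at least 2-fold lower, beside 0.834% of all genes, none higher, 1 lay above 0, and the median was -0.37, beside 0.01 over all genes. It was 0.12 in the sinusoidal cells, and -0.16 in type H cells selected after thinning to 1500 UMIs. Cxcl10, a chemokine gene, stood at 20.7 and 7.12 CPM, a log2 ratio of -1.54 (-2.13 to -0.97), but its UMIs lay in 18 and 10 cells. Ifit3 stood at 20.5 and 10.1 CPM, a log2 ratio of -1.02 (-1.54 to -0.50). Ifit1, Isg15 and Stat2 had -0.77, -0.69 and -0.41, while the tetherin gene Bst2 had 0.02. Rsad2 is also interferon-responsive but is not counted in this list. In type H cells of Control, Rsad2 stood at 169 CPM against 17.9 CPM in the sinusoidal cells.

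The interferon-stimulated response element, the site bound by the factors of this pathway, has a core of GAAA, any 2 bases and GAAA. It was searched on both strands in the 250 bases upstream of each RefSeq start. Of all 32851 promoters 978 held it (2.98%), of those of tested genes 187 of 7117 (2.63%), and of the listed interferon genes 8 of the 12 with a promoter in the table. A match is a description of the letters only. The 8 include Ifit1, Isg15, Stat2 and also Bst2, whose ratio was 0.02. The promoters of Rsad2, Cxcl10 and Ifit3, whose ratios are given above, are shown in the direction of the gene because they carry this core on either strand, in capitals, read from RefSeq on GRCm38.p6. They lie at chr12:26456453-26456702 on the minus strand, chr5:92348890-92349139 on the minus strand and chr19:34583279-34583528 on the plus strand.
Rsad2: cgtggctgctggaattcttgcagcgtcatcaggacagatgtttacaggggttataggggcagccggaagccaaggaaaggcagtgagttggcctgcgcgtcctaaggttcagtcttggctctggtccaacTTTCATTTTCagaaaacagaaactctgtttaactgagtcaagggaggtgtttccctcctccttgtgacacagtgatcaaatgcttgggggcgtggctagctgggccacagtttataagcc
Cxcl10: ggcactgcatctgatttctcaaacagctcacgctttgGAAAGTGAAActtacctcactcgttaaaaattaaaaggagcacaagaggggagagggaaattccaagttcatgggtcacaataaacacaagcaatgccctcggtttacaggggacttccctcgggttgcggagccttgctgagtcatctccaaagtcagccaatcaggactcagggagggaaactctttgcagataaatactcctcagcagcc
Ifit3: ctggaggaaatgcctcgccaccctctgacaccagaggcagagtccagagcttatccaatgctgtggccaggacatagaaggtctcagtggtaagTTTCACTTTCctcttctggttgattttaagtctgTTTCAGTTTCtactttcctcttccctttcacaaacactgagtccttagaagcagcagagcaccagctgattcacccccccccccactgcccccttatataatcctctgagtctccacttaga

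Immediate early and heat shock genes, which respond to stress and to dissociation of tissue, were mostly below 0. Of 14 genes, 2 were at least 2-fold lower, beside 0.834% of all genes, 2 lay above 0, and the median was -0.43, beside 0.01. Fosb stood at 166 and 80.6 CPM, a log2 ratio of -1.04, and Atf3 at 31.5 and 11.8 CPM, a log2 ratio of -1.41. The 10 richest cells held 47% of the Fosb UMIs in Control and 44.4% in Dach1OE, and 66.7% and 58.7% of those of Atf3. Fos had -0.61 and Egr1 -0.80. In the sinusoidal cells Fosb had 0.20 and Fos 0.54, and the list's median was 0.12. In the arterial cells Fosb had -1.09 and the median was -0.57, further below 0 than in type H cells.

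Genes of the G2/M phase stood above 0 by less than 2-fold. All 17 G2/M genes lay above 0 with a median of 0.44, among them the topoisomerase gene Top2a at 0.44 (0.27 to 0.60), the mitotic kinase gene Cdk1 at 0.52 and the proliferation marker Mki67 at 0.22. The median was 0.30 in cells with Xist and -0.01 in cells with Y-linked UMIs, and 0.03 without cells holding 2 genes of another cell type's list. Of 14 S phase genes 9 lay above 0, with a median of 0.26, but the median was -0.08 in cells with Xist, 0.03 in cells with Y-linked UMIs and -0.02 in cells with at least 3 type H genes. Cells with at least 2 G2/M genes, after thinning to 1000 UMIs, made up 11.7% (9.86 to 13.7) of Control and 18.7% (16.5 to 21.0) of Dach1OE type H cells, and 22.1% and 35.8% before thinning. In the sinusoidal cells the thinned shares were 5.67% and 7.43%, and in the arterial cells 8.60% and 8.58%. The G2/M list's median was 0.35 in the sinusoidal and 0.34 in the arterial cells, so it lay above 0 there too. Within sex, in a second draw, the difference was 3.44 percentage points (-1.74 to 8.61) in cells with Xist and 6.70 points (0.283 to 12.7) in cells with Y-linked UMIs. It was largest, at 8.48 points (4.27 to 12.7), in the cells given no sex. Ccnd1, the cyclin D1 gene of the G1 phase, stood at 323 CPM in Control and 778 CPM in Dach1OE, a log2 ratio of 1.27 (1.18 to 1.36), with 1.29 and 1.52 in the cells of either sex.

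Genes for signals from endothelium to bone lay on both sides of 0. Of 16 listed angiocrine genes 2 were at least 2-fold higher and 3 lower, beside 0.689% and 0.834% of all genes, with a median of -0.15. Sema7a, a membrane-anchored semaphorin gene, stood at 140 and 444 CPM, a log2 ratio of 1.66 (1.53 to 1.80). Bmp4 had 1.04 (0.58 to 1.52), whereas Bmp2, a bone-inducing ligand gene, had -1.73 (-2.32 to -1.16), with 30.4% of its Control UMIs in 1 cell and 79.4% in 10 cells. Rspo3, an enhancer of Wnt signals, had -1.31 (-1.83 to -0.81), with UMIs in 50 Control and 30 Dach1OE cells. The 10 cells richest in Rspo3 held 49.5% of its Control UMIs and 60.8% of those of Dach1OE. Cxcl12 stood at 770 and 365 CPM, a log2 ratio of -1.08 (-1.16 to -0.99), with -0.52 and -0.77 in the cells of either sex. The 10 cells richest in Cxcl12 held 45.6% of its Control UMIs and 53.4% of those of Dach1OE. Markers of marrow stroma were lower in the same type H cells, at 618 and 292 CPM, and their part in the Cxcl12 values was not tested. Pdgfb, which recruits mural cells, had 0.80, and Igf1 had -0.67.

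In the matrix, receptor and pathway lists, counts past 2-fold stand beside 0.689% of all genes higher and 0.834% lower, so that a count of 0 is not particular to a list. All 18 basement membrane genes stayed within 2-fold, with a median of 0.03, and the collagen IV genes Col4a1 and Col4a2 stood at 0.03 and 0.06. Eln, the elastin gene, had 0.78 (0.63 to 0.93) and the fibrillin gene Fbn1 -0.93 (-1.18 to -0.67). None of 9 VEGF pathway genes passed 2-fold, with Kdr at -0.06, Flt1 at -0.18 and the semaphorin receptor gene Plxnd1 at 0.44. None of 12 Notch pathway genes did, with Dll4 at 0.01, Hes1 at -0.04 and the Notch target Nrarp at 0.85 (0.67 to 1.03). Of 6 calcitonin-family and related receptor genes, Ackr3 was at least 2-fold higher, at 1.72, while Calcrl, the partner of Ramp3, had -0.60 (-0.75 to -0.45) and Ramp2 0.01. Both tested endothelin genes, which include the selection gene Ednrb, and all 4 tested angiopoietin-Tie genes lay below 0 within 2-fold. Their medians were -0.40 and -0.34, and the value of Ednrb is bound by the selection. None of 16 hypoxia genes passed 2-fold, with a median of -0.08.

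Of 15 endothelial transcription factors, Tcf15 was at least 2-fold higher, beside 0.689% of all genes, at 5.74 and 27.0 CPM and a log2 ratio of 2.23 (1.59 to 2.94). The homeobox gene Meox1 had 0.87. Of the partners through which Dach proteins act, Eya3 had -0.14 and Six5 0.03. Maf, a factor of sinusoidal endothelium, stood at 365 and 204 CPM, a log2 ratio of -0.84 (-0.95 to -0.72). Of 14 junction and adhesion genes Vwf passed 2-fold, and of 10 flow genes none did, beside the same shares of all genes. Lipid uptake genes included Gpihbp1, the anchor of lipoprotein lipase, at 497 and 771 CPM, and the lipase gene Lpl itself, which also leads the marrow stroma markers, at -0.98.

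**Figure D3:**
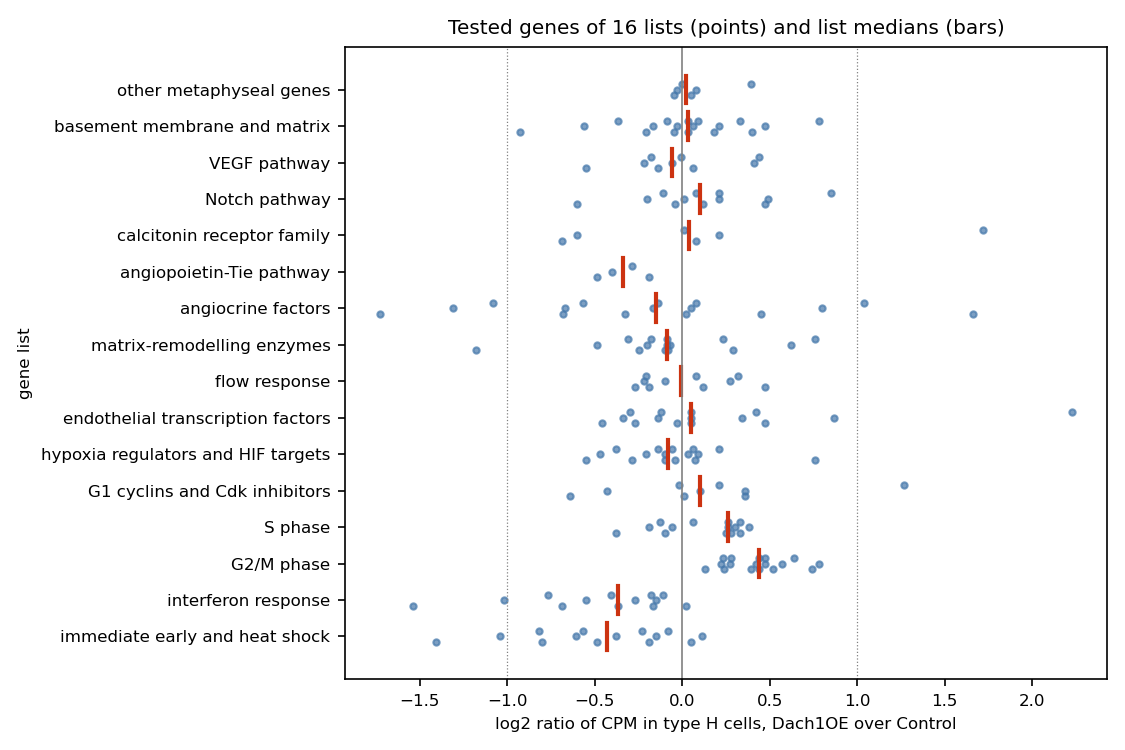
Log2 ratios of CPM, Dach1OE over Control, in type H cells for the tested genes of 16 lists (points), with the median of each list (bar) and dotted lines at a 2-fold difference. The G2/M list has all its genes above 0 and a median of 0.44, and the interferon list has 12 of 13 genes below 0 and a median of -0.37.

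Genes that set the type H cells apart from the other ECs were described within each library. Of 9810 genes, 58 (0.591%) were at least 2-fold higher and 232 (2.36%) at least 2-fold lower in type H cells of both libraries. Because these cells were selected on their counts, no test was made. The other ECs differed in make-up between the libraries, so the values of Control and Dach1OE do not share a comparator. Lrrc55, an auxiliary subunit gene of potassium channels, was highest by ratio, with 56.7 CPM in type H cells and 7.04 CPM in other ECs of Control, and log2 values of 3.01 in Control and 3.23 in Dach1OE. The potassium channel gene Kcne3 had 2.55 and 2.80, Gap43 had 2.62 and 2.55, and the growth factor gene Ptn had 2.45 and 2.25. Rsad2 had 2.32 and 1.31, and Cd40, a costimulatory receptor gene, had 2.25 and 1.58. The intermediate filament gene Nes had 1.87 and 1.38. Between libraries, Lrrc55 itself differed by -1.04 (-1.35 to -0.73) and Ptn by -0.82 (-1.0 to -0.65). At the other end stood, among others, Ubd, a ubiquitin-like gene, with 26.2 CPM in type H cells and 714 CPM in other ECs of Control, and the endothelial lipase gene Lipg, with 22.7 and 399 CPM.

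The ratio between libraries was compared between type H and sinusoidal cells. Lamb1 had -0.05 in type H cells and 1.73 in sinusoidal cells, a difference of -1.78 (-2.02 to -1.54), since sinusoidal cells had 18.4 CPM in Control but 60.9 CPM in Dach1OE. Rsad2 differed by -1.98 (-2.30 to -1.66) and Mest by 2.03 (1.80 to 2.26) between the 2 kinds of cell. The Eph receptor gene Ephb1 had 0.29 and 1.75, and Sparcl1, a matricellular gene, had 0.47 and 1.71. Lalba, the alpha-lactalbumin gene, had 1.14 and -0.73, and Ubd had 1.01 and -0.54. In contrast, Sema7a differed by 0.01 (-0.23 to 0.24), Ccnd1 by 0.10 (-0.01 to 0.21) and Cxcl12 by -0.09 (-0.19 to 0.02). The type H and sinusoidal cells come from the same 2 libraries, so these differences were not tested.

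**Figure D4:**
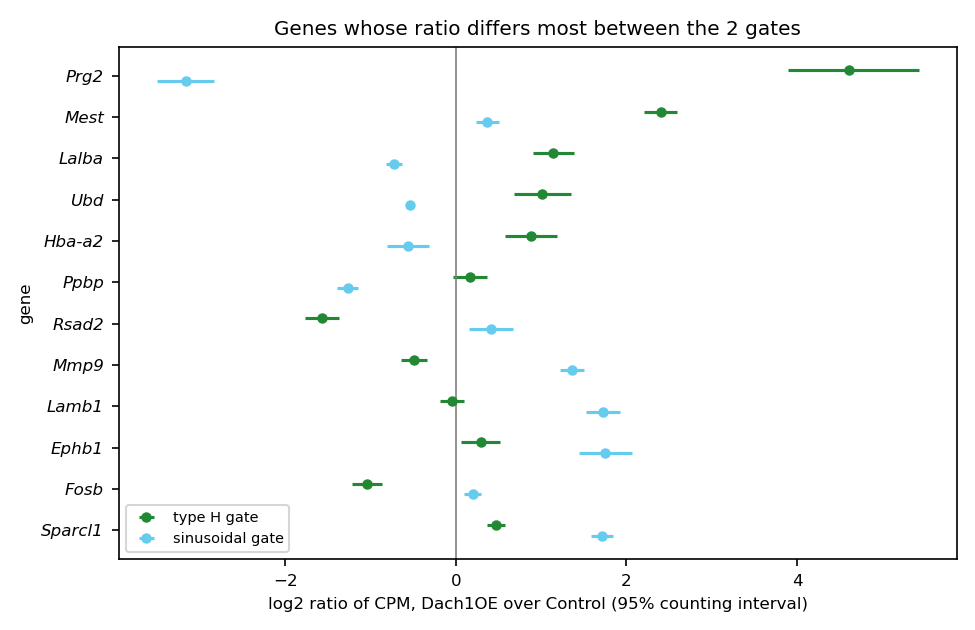
Log2 ratios of CPM, Dach1OE over Control, in the type H and the sinusoidal cells for the 12 genes whose ratio differed most between them, with 95% counting intervals. Mest lies at 2.40 in type H and 0.37 in sinusoidal cells, and Lamb1 at -0.05 and 1.73.

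Within the Dach1OE library, 125 thinned type H cells with a Dach1 UMI were set beside 1084 without, a description within 1 library in which a cell without a UMI can still express the gene. Gt(ROSA)26Sor stood at 1.49 (0.98 to 1.97) above the cells without, Mest at 1.26 (0.91 to 1.59), Gap43 at 1.13 (0.66 to 1.58) and Sema7a at 0.89 (0.58 to 1.18) on the log2 scale. Ackr3 stood at 1.34, Ccnd1 at 0.70 (0.44 to 0.95) and Vwf at 0.85 (0.13 to 1.5), while Gja4 had 0.55 (-0.47 to 1.44). Of the selection genes, Pcdh17 had -1.41 (-2.64 to -0.40), Ramp3 -1.16 (-2.13 to -0.32) and Piezo2 -0.94 (-1.80 to -0.19). Ednrb had -0.13 (-0.59 to 0.30). All cells on both sides were selected on these genes, so a cell without one of them had to hold others. The values and intervals of the selection genes are thus bound by the selection, and a link between these genes and Dach1 was not tested. Aplnr, whose promoter drives the Cre, had 0.18 (-0.07 to 0.43). Of the other 11 genes highest between libraries, 9 lay above 0 in this comparison, 6 of them with an interval above 0, and 1 had an interval below 0. Of the 12 lowest, 4 had an interval below 0 and 3 lay above 0.

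Markers of other cell types were present in the type H cells of both libraries. Summed levels were 12181 and 16214 CPM for osteoblasts, led by Col1a1, 16445 and 12981 CPM for chondrocytes, led by Col2a1, 768 and 1011 CPM for mural cells and 855 and 745 CPM for erythroid cells. In the sinusoidal cells osteoblast markers summed to 10795 and 10328 CPM. Every marker of the osteoblast (9 genes), chondrocyte (9), marrow stroma (9), mural (8), erythroid (8), fibroblast and tendon (8) and megakaryocyte (6) lists had UMIs in both libraries, against 4 and 3 of 8 lymphoid markers and 8 and 9 of 10 myeloid markers. Fibroblast and tendon markers summed to 727 and 573 CPM, megakaryocyte markers to 221 and 231 CPM and lymphatic markers to 89.1 and 37.7 CPM, of which Mmrn1 alone gave 68.9 and 26.4 CPM. Myeloid markers reached 35.7 and 39.6 CPM and lymphoid markers 1.5 and 1.31 CPM. Over 1% of UMIs went to osteoblast markers in 79 and 87 type H cells and to chondrocyte markers in 61 and 73. Marrow stroma markers passed 1% in 15 and 5 cells, and mural markers in 15 and 34. Without the cells that any such list exceeded, 67 genes were at least 2-fold higher, 45 of them among the 62, and 63 lower, 41 of them among the 75.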

How the data were processed

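Single-cell RNA was captured with BD Rhapsody from 1 Control and 1 Dach1OE library, each of 2 mice per the methods. Per the file headers the authors' counts came from version 1.11 of the BD Rhapsody WTA pipeline, with GRCm38 and GENCODE vM19, with intronic reads kept, and the deposited counts are whole and not normalized. The methods name another pipeline version and the labels name mm10. Strand handling is not given in the sources used here, so overlapping, antisense and paralogous genes are uncertain. UMIs after the pipeline's error correction were used, and all per-sample columns were mapped (0 unmapped).

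The filters of the methods were applied: 500 to 6000 genes per cell and a mitochondrial share of UMIs under 25%. No doublet caller was run. The members and the 38 gene lists were chosen with earlier results of these data known. UMIs were summed over the selected cells of a library and divided by their total (CPM). Log2 ratios have exact conditional binomial intervals, levels exact Poisson intervals, shares exact binomial intervals and differences of shares Newcombe intervals. A gene at 0 in a library was set to 3 counts. No test was possible with 1 library per group. At least 2-fold stood in for a call, among genes with at least 100 UMIs.

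Named genes were the 12 highest and 12 lowest ratios with at least 300 UMIs and at least 2-fold in all cells. They also had to be at least 1.5-fold the same way in both sexes. Mitochondrial, ribosomal and predicted genes, Xist, Tsix and the Y-linked genes used to read sex were left out. The rule also named the 15 highest and 10 lowest genes over other ECs, the 6 largest differences from sinusoidal cells either way, and listed genes. Sex was read from Xist against 4 Y-linked genes. Alternatives were raw UMIs, mitochondrial and gene limits, selection stringency, thinning, leaving out cells, each sex, TMM scaling from edgeR 4.0.16 (R 4.3.3), the mean of per-cell CPM and the UMI minimum. The scripts used Python 3.11.15, numpy 2.4.6, scipy 1.17.1 and pandas 2.3.3, and were tested on simulated data. Coordinates come from GENCODE on GRCm38.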

Additional observations from a re-analysis of the deposited data

Results flagged for a closer look

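The share of type H cells among ECs differed between the libraries by -0.237 percentage points (-1.67 to 1.20) in cells with Xist, from 10.8% to 10.6%, and by 3.88 points (2.24 to 5.52) in cells with Y-linked UMIs, from 8.57% to 12.5%. What drew attention was the difference between the sexes, each of which is 1 mouse per library, and it was not tested.

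Of the 12 genes with the largest difference, 7 had a Dach1OE over Control ratio of opposite sign in the type H and the sinusoidal cells that held in the cells of either sex, and these differences were not tested. Prg2 differed most, by 7.78 on the log2 scale, with 89.5% of its Dach1OE type H UMIs in 1 cell. Lalba differed by 1.87, from 1.14 in type H to -0.73 in sinusoidal cells, and Ubd by 1.55, from 1.01 to -0.54. Ppbp, a platelet gene, differed by 1.43, from 0.17 to -1.27, and its 10 richest type H cells held 58.7% of the Control UMIs and 66.1% of those in Dach1OE. Rsad2 differed by -1.98, Lamb1 by -1.78 and Fosb by -1.25. Some of these signs rest on values near 0: Lamb1 had -0.05 in type H cells, and Fosb had 0.20 in sinusoidal cells, with 0.04 in those with Y-linked UMIs.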

How the results depend on the processing

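The difference in share, in percentage points, was 1.28 with a 10% mitochondrial limit, 1.39 with 1000 to 6000 genes per cell, -1.26 with at least 3 type H genes, -7.93 with no limits on other genes, -2.30 with cells thinned to 1500 UMIs, -3.56 without cells holding 2 genes of another cell type's list, -1.12 without cycling cells and 3.88 in cells with Y-linked UMIs. The direction of the share therefore changed with these choices. Dach1 had 4.02 with thinned cells and 7.15 in cells with Y-linked UMIs.

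The number of genes at least 2-fold higher was 33 with at least 3 type H genes, 110 with no limits, 19 with thinned cells, 6 without cells holding 2 genes of another list, 34 in cells with Xist, 666 with at least 1 UMI and 32 with at least 300 UMIs. The number lower was 36, 135, 17, 10, 46, 915 and 31 in the same order, and 39 in cells with Y-linked UMIs. These counts are over 6796, 11030, 4583, 1141, 5233, 20990, 5268 and 4785 genes tested, beside 8995, so they do not compare as shares. Over these unequal numbers of tested genes, genes past 2-fold in the lists other than the selection genes and the markers of other cell types, 16 in all, numbered 10, 25, 9 and 2 under the first 4 of these, 10 without cycling cells, 10 in cells with Xist and 8 by the mean of per-cell CPM. Without cells holding 2 genes of another list, which left 161 and 103 cells, Olfml2b had 0.03, Mmrn1 0.19 and Mmp13 0.45. With thinned cells Mmp13 had 0.27. The cause was not tested.

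Of 332 values of the named genes under alternatives, 305 had the same direction and at least 2-fold, and 10 of the 24 genes did so under every alternative tried. A further count by interval had 97 values outside the counting interval of the main ratio but in its direction, and 4 in the opposite direction. The naming rule required the same direction in both sexes, so the direction in cells of either sex was set in advance. TMM moved the median of all genes to 0.04. Leaving out cells over 1% of another list, and cells richest in a gene, was chosen after seeing the data. No paired analysis was possible because each group had 1 library.

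With 16 Dach1 UMIs in Control type H cells, depth limits low genes first, and without a replicate library a difference between libraries cannot be told apart from one between genotypes.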

Other observations

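In the type H cells all 6 sinusoidal selection genes stood below 0 in the ratio of Dach1OE over Control, with a median of -0.99, among them Gpm6a at 42.9 and 9.94 CPM and Mrc1 at 105 and 54.0 CPM. Of the 3 arterial and 2 tip selection genes with enough UMIs, 1 in each list stood above 0. Fbln2, an arterial gene, stood at 155 and 66.9 CPM, and Jag2 at 37.2 and 59.6 CPM. These genes bound the selection, so the values are descriptions. Of the immune and adhesion genes, Icam2 stood at 188 and 286 CPM and Selp at 54.7 and 39.5 CPM. Among flow genes, Nos3 had a log2 ratio of 0.47 (0.29 to 0.64) and Klf2 one of -0.22 (-0.32 to -0.12).

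The arterial genes outside the selection had a median of -0.02 over 11 tested genes, with Gja4 alone past 2-fold, beside 0.689% of all genes higher and 0.834% lower. Ly6a stood at 659 and 826 CPM in type H cells, a ratio of 0.33, beside 1.15 in the sinusoidal cells.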
